A study of Homo sapiens with 2 samples.

Results

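The SLC25 genes encode the mitochondrial carrier family, and NRF-1 peaks at their promoters were examined in U251, a human cell line derived from a glioblastoma. Every protein-coding gene whose symbol begins with SLC25A was taken from the GENCODE annotation, which gave 48 members among 19794 protein-coding genes, and no measured value entered this choice. The cells had received either a non-targeting control siRNA, called siControl, or an siRNA that targets AATF, called siAATF. AATF is a transcriptional cofactor that the study examined as a partner of NRF-1, and no other treatment was labelled. The sample labels name U251 whereas the text on the series design names U138, and the labels were followed. Each condition contributed 1 list of NRF-1 peaks, with 18014 peaks in siControl and 18454 in siAATF, so no replicate spread, no test between conditions and no interval for a difference could be had. A difference between the lists cannot be told apart from a difference between 2 libraries, and the number of reads in each library is unknown. The extent of AATF depletion cannot be read from peak lists.

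Mitochondrial carriers sit mostly in the inner mitochondrial membrane and exchange nucleotides, phosphate, keto acids, amino acids, cofactors and metal ions between the matrix and the cytosol. Respiration depends on them, because oxidative phosphorylation needs ADP and phosphate inside the matrix and has to export ATP. The transcription factor NRF-1 binds GC-rich repeats in the promoters of many nuclear genes whose products work in mitochondria, and also at many genes of general cell growth. Some carriers are made in nearly all cells, while others serve a single organ, such as liver, testis, muscle or the erythroid lineage.

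A promoter was defined as 1 kb on either side of any protein-coding transcript start. Where several peaks touched the promoter of a gene, that with the highest −log10 q was taken as its lead peak. The −log10 q is the significance that MACS2 gives a peak after correction for multiple testing, and the fold enrichment is the signal of the peak over its local background. Both are relative to the library itself, so peaks were compared between lists by percentile rank within the list, on which 100 is the strongest peak.

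NRF-1 peaks were found at most carrier promoters, and at the same ones with and without AATF depletion. A promoter peak was present at 37 of the 48 members in siControl (77.1%), beside 61.1% of all coding genes. In siAATF it was present at 37 members, beside 60.7% of all coding genes. These were the same 37 genes, so 37 members had a peak in both lists (59.5% of all coding genes) and 0 members had a peak in siControl alone (1.62%) or in siAATF alone (1.17%). The lead peaks of the 2 lists overlapped by at least 1 base at each of the 37, and did so at 98.6% of the coding genes with a promoter peak in both lists. With −log10 q of at least 5, 34 members kept a promoter peak in siControl (51.5% of all coding genes) and 32 in siAATF (51.5%). In siControl the members short of this threshold were SLC25A27, SLC25A38 and SLC25A46, and in siAATF they were joined by SLC25A20 and SLC25A43.

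Where a peak was present it was of ordinary strength. The lead peaks of the members had a median −log10 q of 19.0 in siControl (range 3.56 to 93.2), against 18.1 for all coding genes with a promoter peak. In siAATF the median was 16.3 (range 3.59 to 80.0), against 17.6. By fold enrichment, the median percentile rank of the members was 65.0 in siControl, against 63.2 for all coding genes with a promoter peak, and 68.9 in siAATF, against 64.4. The family thus stood above the background in how many promoters held a peak, and near it in how strong the peaks were. At promoters with a CpG ratio of 0.6 or more, described below, the siControl shares were closer, 88.1% and 83.2%. A promoter with a peak is called occupied below. No control library was named, so how far a peak reflects NRF-1 binding was not tested. These are descriptions of 1 list each, and no test was made.

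**Figure D1:**
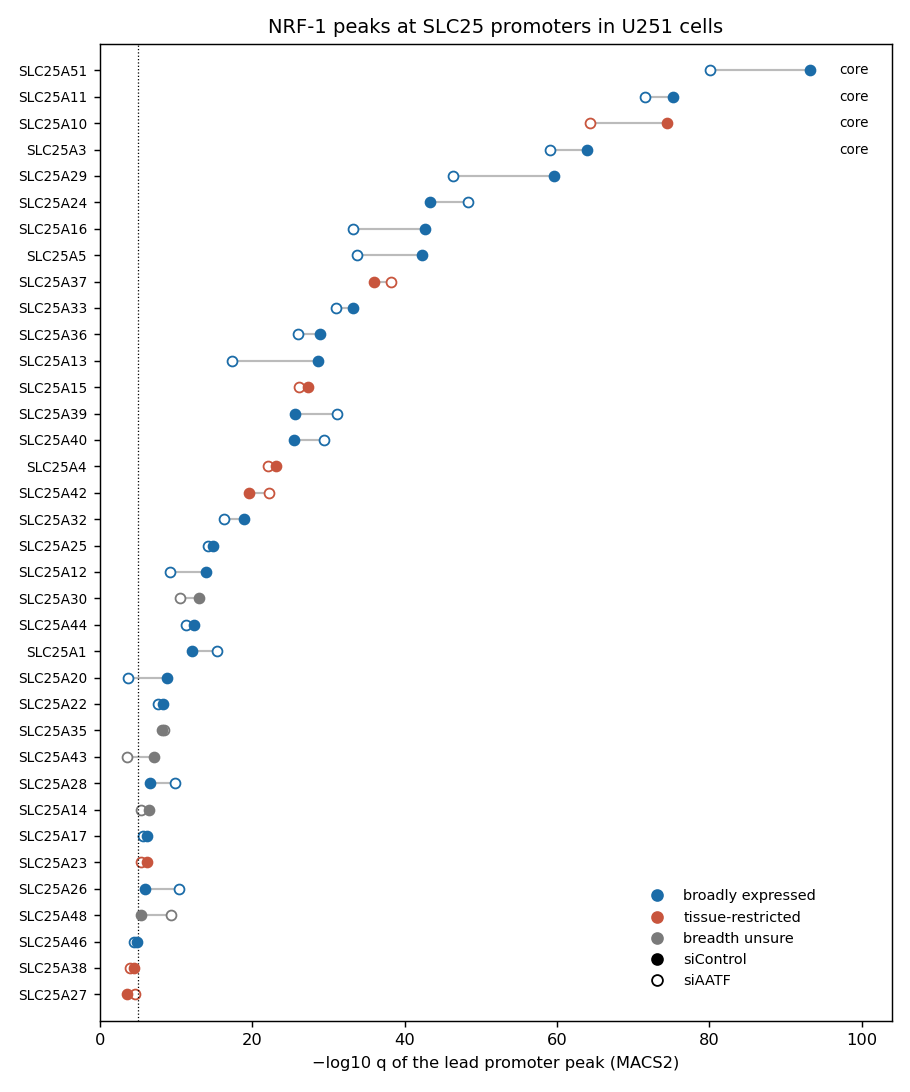
The −log10 q of the lead promoter peak (x axis) is plotted for 36 of the 37 carrier genes with a peak (y axis, ordered by siControl), with filled points for siControl, open points for siAATF, colours for the breadth of expression and a dotted line at 5. SLC25A51 tops both lists at 93.2 and 80.0, and the 4 genes marked "core", whose peak holds the NRF-1 core with 1 mismatch, are the uppermost 4.

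The carriers were then divided by how widely they are expressed, from general knowledge. The classes were assigned by hand with earlier results of these data known, so the counts by class are a description and no independent evidence. There were 25 carriers taken as broadly expressed, 14 as tissue-restricted and 9 whose breadth was unsure. Of the broadly expressed carriers, 24 of 25 had a promoter peak in each list. Of the tissue-restricted carriers, 8 of 14 (57.1%) had a promoter peak in each list, close to the share of all coding genes. Of the carriers of unsure breadth, 5 of 9 had a promoter peak in each list. By −log10 q the occupied restricted carriers were not weak. Their lead peaks had a median −log10 q of 21.4 in siControl and 22.2 in siAATF, beside 25.6 and 21.7 for the occupied broadly expressed carriers. The 5 occupied carriers of unsure breadth had the weakest peaks, with medians of 7.14 and 8.45. By fold enrichment, the median percentile rank of the occupied broadly expressed carriers was 76.5 in siControl and 71.5 in siAATF. That of the occupied restricted carriers was 64.6 and 66.4, near the 63.2 and 64.4 of all coding genes with a promoter peak. The broadly expressed and restricted classes thus differed in the number of occupied promoters, and in peak strength by fold enrichment more than by −log10 q.

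The counts by transport group that follow stand beside 61.1% of all coding genes in siControl and 60.7% in siAATF. Among the carriers of phosphate and adenine nucleotides, 6 of 9 (66.7%) had a promoter peak in each list, near that share. SLC25A3, the carrier that brings phosphate into the matrix for ATP synthesis, had a lead peak on chromosome 12 at 98986888 to 98987660, with a −log10 q of 64.0 in siControl and 59.1 in siAATF. Its fold enrichment of 10.1 in siControl and 9.20 in siAATF ranked at percentile 97.8 and 96.6. By −log10 q it was the strongest of the group in both lists. The 4 ADP/ATP carriers, which exchange matrix ATP for cytosolic ADP, were unlike each other. SLC25A5, the form of proliferating cells, had a −log10 q of 42.3 in siControl and 33.8 in siAATF (chromosome X, 118602199 to 118603516). SLC25A4, the form of heart and skeletal muscle, had 23.2 and 22.1 (chromosome 4, 186064078 to 186064992). SLC25A6, which is made in most tissues, and SLC25A31, the form of testis, had no promoter peak in either list. SLC25A6 lies in a region of the X chromosome where no coding gene shared with Y had a promoter peak in either list, so its lack of a peak is not set against the other forms. Among the carriers that exchange ATP-Mg for phosphate, SLC25A24 had a −log10 q of 43.4 in siControl and 48.3 in siAATF (chromosome 1, 108742442 to 108743323). SLC25A25 had 14.8 and 14.2, and SLC25A23 had 6.20 and 5.37. These 3 are regulated by calcium, whereas SLC25A41, which lacks the calcium-binding domain, had no promoter peak.

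Of the carriers of keto acids and of di- and tricarboxylates, 3 of 4 had a promoter peak in each list. SLC25A11, the oxoglutarate carrier of the malate-aspartate shuttle, had a −log10 q of 75.2 in siControl and 71.5 in siAATF on chromosome 17 at 4842835 to 4843816. SLC25A10, the dicarboxylate carrier, had 74.5 and 64.3 on chromosome 17 at 79678642 to 79679758. SLC25A1, which exports citrate for fatty acid synthesis, had 12.1 and 15.3. SLC25A11 and SLC25A10 ranked above percentile 90 by −log10 q in both lists, and the citrate carrier did not. SLC25A21, the oxodicarboxylate carrier, had no promoter peak.

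Of the amino acid carriers, 6 of 8 had a promoter peak in each list. SLC25A29, a carrier of basic amino acids, led them with a −log10 q of 59.7 in siControl and 46.4 in siAATF (chromosome 14, 100772487 to 100773444). The aspartate/glutamate carriers of the malate-aspartate shuttle were SLC25A13, with 28.6 and 17.4, and SLC25A12, with 13.9 and 9.29. In rank by −log10 q, SLC25A13 differed by −8.91 points and SLC25A12 by −8.69 points, siAATF minus siControl. Of the 6 amino acid carriers with a peak, 5 ranked lower in siAATF by this measure and 1 higher. SLC25A15, the ornithine carrier of the urea cycle, had 27.3 and 26.2, and its paralog SLC25A2 had no promoter peak. SLC25A22, a glutamate carrier, had 8.31 and 7.70, and its paralog SLC25A18 had no promoter peak. Of these 4 genes, SLC25A22 was taken as broadly expressed and the others, occupied or not, as tissue-restricted. SLC25A44, a carrier of branched-chain amino acids, had 12.4 and 11.3.

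Of the carriers of cofactors and nucleotides, 9 of 10 had a promoter peak in each list. SLC25A51, which brings NAD into the matrix, had the highest −log10 q of the family, 93.2 in siControl and 80.0 in siAATF, on chromosome 9 at 37903527 to 37904549. Among all peaks of its list it stood at place 143 in siControl and 258 in siAATF by −log10 q. It was followed by SLC25A16, a carrier linked to coenzyme A, with 42.6 and 33.3 (chromosome 10, 70286924 to 70287611), whose fold enrichment of 10.4 in siControl and 9.58 in siAATF was the highest of the family. The pyrimidine nucleotide carriers SLC25A33 and SLC25A36 were alike, with 33.2 and 31.0 for SLC25A33 (chromosome 1, 9599114 to 9600048) and 29.0 and 26.1 for SLC25A36. SLC25A42, a coenzyme A carrier, had 19.6 and 22.3, and SLC25A32, a carrier of folate and FAD, had 19.0 and 16.3. The weakest of the group were SLC25A17, a peroxisomal carrier of cofactors, with 6.27 and 5.75, and SLC25A26, the S-adenosylmethionine carrier, with 5.97 and 10.4. SLC25A52, the paralog of the NAD carrier, was the member of this group without a promoter peak.

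All 5 carriers of iron, glycine and glutathione had a promoter peak in each list. Mitoferrins bring iron into the matrix for heme and iron-sulphur clusters. The erythroid form SLC25A37 had a −log10 q of 36.0 in siControl and 38.2 in siAATF (chromosome 8, 23386098 to 23387164), well above the general form SLC25A28, with 6.58 and 9.89. The glutathione carriers SLC25A39 and SLC25A40 were close to each other, with 25.6 and 31.1 for SLC25A39 and 25.5 and 29.4 for SLC25A40. SLC25A38, the glycine carrier of heme synthesis, had 4.58 and 4.05.

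In the remaining groups SLC25A30 had the highest −log10 q in both lists, and it was below the family median. The relatives of the uncoupling proteins all had a promoter peak, SLC25A30 with 13.0 in siControl and 10.6 in siAATF, SLC25A14 with 6.47 and 5.44, and SLC25A27 with 3.56 and 4.62. Among the carriers of acyl groups and their relatives, SLC25A20, the carnitine/acylcarnitine carrier of fatty acid oxidation, had 8.81 and 3.68. SLC25A48 had 5.46 and 9.39, but at a start far from its canonical one, in a peak that also held a start of CXCL14. SLC25A45 and SLC25A47 had no promoter peak. Of the orphan carriers, SLC25A35 had 8.16 and 8.45 and SLC25A43 had 7.14 and 3.59, whereas SLC25A34 and SLC25A53 had no promoter peak. SLC25A46, an outer membrane protein of mitochondrial dynamics, had 4.92 and 4.50.

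The NRF-1 binding site is a repeat of TGCGCA, and its inner 10 bases, GCGCATGCGC, were searched as the core on both strands. The exact core was in 0 of 37 lead peaks of the members in siControl, beside 3.95% of the lead peaks of all coding genes, and in 0 of 37 in siAATF, beside 4.01%. With up to 1 mismatch, it was in 4 of the 37 in siControl (24.2% of all coding genes with a lead peak) and in the same 4 in siAATF (24.4%). No test was made of these shares, and the promoter windows of the family held the core with up to 1 mismatch about as often as those of all coding genes (14.6% and 14.2% within 500 bp of the canonical start). The sites are shown because these 4 genes were also the 4 with the highest −log10 q. Each site below is 30 bases on hg19, read in the direction of the gene, with the core in capitals.

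SLC25A51: gtcacagtctGCGCCTGCGCgggccccggc
SLC25A11: tttgcgctgcGCGCCTGCGCccgcgccggc
SLC25A10: tcacgagccaGCGCCTGCGCggcggggtgg
SLC25A3: cccggaacgcGCGCCTGCGCagaacgaatc

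The SLC25A51 site lies on the minus strand at chr9:37904100-37904129, centred 10 bp inside exon 1, in the 5′ UTR. The SLC25A11 site (minus strand, chr17:4843339-4843368) is centred 12 bp upstream of the canonical start. The SLC25A10 site (plus strand, chr17:79678979-79679008) and the SLC25A3 site (plus strand, chr12:98987240-98987269) lie further upstream, with their centres at −320 bp and −210 bp. All 4 carry the same departure from the core, A5C, counted from 1 at the first capital. Read on either strand, this spelling was the most frequent of those with 1 mismatch, and was present in 41.2% of all siControl lead promoter peaks that held the core with up to 1 mismatch (1019 of 2473 distinct peaks). It was present within 500 bp of the canonical start in 5.68% of all coding genes.

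The same genes were the members at or above percentile 90 by −log10 q. That range held 4 of the 37 lead peaks in siControl, beside 16.1% of the lead peaks of all coding genes, and the same 4 in siAATF, beside 16.7%. The 4 peaks with the core had −log10 q values of 64.0 to 93.2 in siControl, whereas the 33 without it reached from 3.56 to 59.7, so the groups did not overlap. In siAATF they had 59.1 to 80.0, above the highest value of 48.3 among the 33. Over all coding genes the medians in siControl were 66.4 with the core and 12.3 without, with ranges that overlapped widely. Fold enrichment did not separate the members in this way. Percentile 90 by fold enrichment was also reached by 4 lead peaks of the family in siControl, and SLC25A3 was the only one of them with the core. The others, SLC25A16, SLC25A24 and SLC25A15, held no core with up to 1 mismatch in their lead peaks.

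**Figure D2:**
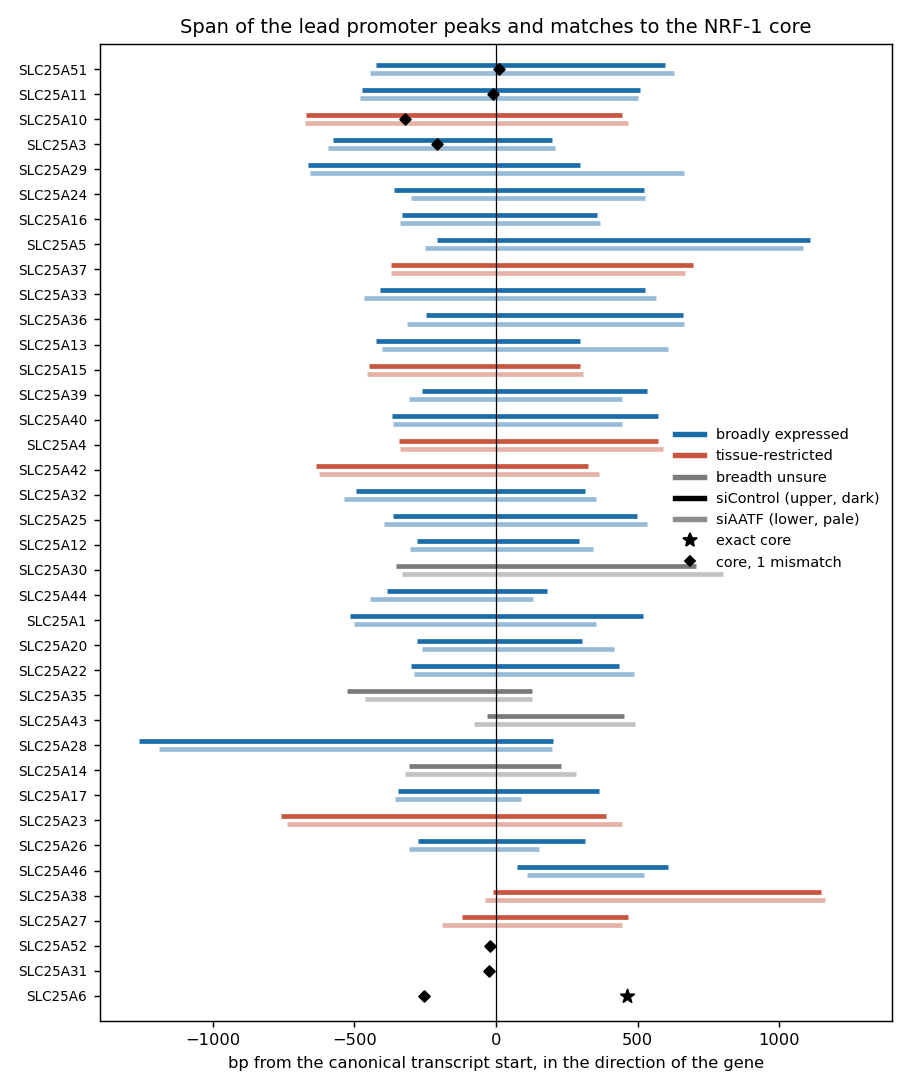
Lead promoter peaks are drawn as bars against the distance from the canonical transcript start (x axis, bp, in the direction of the gene) for 35 of the 37 members with a peak, without SLC25A48, whose peak lies at a distant start. Dark bars are siControl, pale bars siAATF, and the symbols mark matches to the core. Matches fall inside the peaks of SLC25A51, SLC25A11, SLC25A10 and SLC25A3, and at 3 genes with no peak in the bottom rows.

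A match to the core was also present at 3 members without a promoter peak. These sites are shown for comparison with the occupied ones, in the same layout.

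SLC25A52: gtcatggtctGCGCCTGCGCaggtcccggc
SLC25A31: ggccgttggaGCGCCTGCGCagcttttccg
SLC25A6 (at +462): ggattggaggGCGCATGCGCgctgagcagg
SLC25A6 (at −254): ggcccctacgGCGCATGGGCggggcctggc

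The SLC25A52 site, on the minus strand at chr18:29340850-29340879, is centred 22 bp upstream of the canonical start. It equals the site of its paralog SLC25A51 in 26 of 30 bases, core included. The nearest peak to SLC25A52 was 75.2 kb away in each list. The paralog with the highest −log10 q of the family and a paralog without a promoter peak thus carry a nearly equal site. Compared base by base without gaps, the promoters around it were less alike. The core with 100 bases before it was equal in 62.7%, and with 100 after it in 61.8%. With 500 bases these values were 30.6% and 32.0%. An insertion or deletion would lower such values, so they do not measure how alike the promoters are. The ratio of observed to expected CpG within 500 bp of the start was 0.822 at SLC25A51 and 0.594 at SLC25A52. The SLC25A31 site, on the plus strand at chr4:128651515-128651544, is centred 26 bp upstream of the start of this testis form, and the nearest peak lay 51.3 kb away in both lists. Both sites have the A5C spelling of the occupied sites. Within 500 bp of the canonical start, 7 of the 48 members held the core with up to 1 mismatch, and 4 of the 7 had a promoter peak. Of all coding genes with such a match, 90.5% had one in siControl and 90.1% in siAATF.

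SLC25A6 held the single exact core of the family, in an intron at chrX:1510529-1510558, and a second match with 1 mismatch, C8G, upstream at chrX:1511246-1511275, both on the minus strand. It was the broadly expressed carrier without a peak. The gene lies in the pseudoautosomal region, which the X and Y chromosomes share. Of the coding genes annotated on both X and Y, 15 have a start in the first 3 Mb of X, and 0 of the 15 had a promoter peak in either list. Neither list held a peak on X up to the last of these starts, although they held 480 and 486 peaks on X in all, and the peak nearest to SLC25A6 was 1336 kb away in both. In the reference genome used here the Y copy of the SLC25A6 promoter is masked. The absence of peaks was thus not particular to SLC25A6, and the effect of read mapping on it was not tested.

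The members without a promoter peak were compared by the CpG content of their promoters. The ratio of observed to expected CpG dinucleotides, taken over 500 bp on either side of the canonical start, is high in CpG islands, and 0.6 is the usual limit. It was under 0.6 at 6 members, SLC25A18, SLC25A34, SLC25A41, SLC25A45, SLC25A47 and SLC25A52, and none of these had a promoter peak in either list. Of all coding genes under 0.6, 17.8% had a promoter peak in siControl. At a ratio of 0.6 or more, 37 of 42 members had a peak in siControl (88.1%), beside 83.2% of all coding genes. Within this class the family thus stood closer to all coding genes than it did without regard to CpG content, where the shares were 77.1% and 61.1%. Nearest to the limit were SLC25A48, at 0.609, and SLC25A52, at 0.594. The peak counted for SLC25A48 lies at another start far from the canonical one around which the ratio was taken, so neither gene had a peak in the window of its ratio. The members with a ratio over the limit and no peak were SLC25A2 (0.791), SLC25A6 (0.958), SLC25A21 (0.767), SLC25A31 (0.851) and SLC25A53 (0.804).

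**Figure D3:**
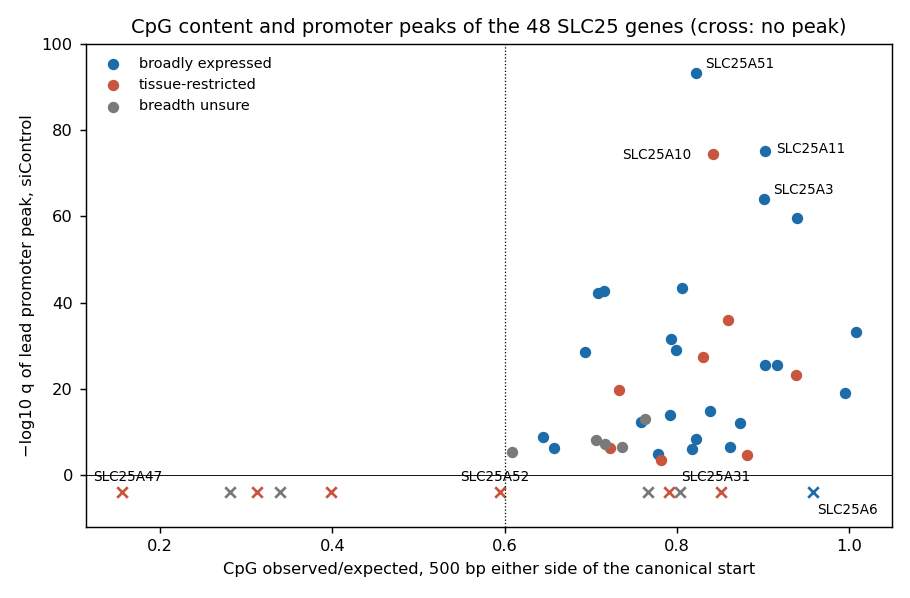
The −log10 q of the siControl lead promoter peak (y axis) is plotted against the observed to expected CpG ratio (x axis) for the 48 members, coloured by breadth of expression, with crosses under 0 for members without a peak and a dotted line at 0.6. All 37 members with a peak lie right of the line, as do 5 of the 11 without, and the ratio of SLC25A48 was taken far from its peak.

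The split by breadth followed CpG content in part. Each of the 25 broadly expressed carriers had a ratio over 0.6, and 24 had a peak. Of the 14 restricted carriers, 10 had a ratio over 0.6, and 8 of these 10 had a peak in each list. The other 4 had neither. CpG content thus moved with both the breadth class and the presence of a peak, and its part in the difference between the classes was not tested.

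Several unoccupied carriers lay near strong peaks that belonged to other genes. SLC25A45 was 3.45 kb from a siControl peak with a −log10 q of 71.0 at the start of FRMD8. SLC25A41 was 8.75 kb from a peak of 39.1 at KHSRP, and SLC25A53 was 9.08 kb from a peak at FAM199X. SLC25A47, a liver carrier, has its start 16.2 kb from the peak of SLC25A29, a neighbour from the same family. SLC25A2 was 16.3 kb from a peak of 58.6 at TAF7, and SLC25A21 was 24.9 kb from a peak of 70.0 at MIPOL1. The same genes lay at the nearest siAATF peak of each of these 6 carriers. Of the others, SLC25A34 was 29.3 kb from its nearest siControl peak and SLC25A18 was 13.4 kb from a weak peak of 2.46 in its own gene body. In siAATF their nearest peaks were other, weaker ones, at 24.3 kb and 7.87 kb, with a −log10 q of 1.47 and 1.63.

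The change from siControl to siAATF was small for most members. Over the 37 pairs of lead peaks, the median difference in percentile rank by fold enrichment, siAATF minus siControl, was −1.18 points, beside 0.203 points over all coding genes with such a pair. The rank was lower in siAATF at 21 members and higher at 16, beside 5651 lower and 5957 higher over all coding genes. By −log10 q the median was −0.314 points, beside 0.468 points over all coding genes. By this measure 19 members were lower and 18 higher, beside 5144 lower and 6464 higher over all coding genes. The median absolute difference was 4.89 points by fold enrichment, beside 5.08 over all coding genes. With 1 list per condition there is no spread against which to hold these values.

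A difference of more than 20 points by fold enrichment was seen at 4 members. The rank was lower by more than 20 points at 3 of the 37 and higher at 1. Of the 11608 coding genes with overlapping lead peaks, 2.82% were lower and 3.60% higher by this much. SLC25A20 ranked 62.2 in siControl and 29.3 in siAATF, a difference of −33.0 points, and its fold enrichment was 6.66 and 4.47 (chromosome 3, 48936014 to 48936593). SLC25A43 ranked 56.8 and 31.5, a difference of −25.3 points (chromosome X, 118533269 to 118533749). SLC25A13 ranked 89.7 and 65.0, a difference of −24.7 points (chromosome 7, 95951115 to 95951834). These 3 genes kept a promoter peak in siAATF. SLC25A26 went the other way, from 50.4 to 80.5, a difference of 30.1 points (chromosome 3, 66271153 to 66271741). Ranked by −log10 q, 1 member was lower by more than 20 points, SLC25A20 at −23.0 points, and 0 members were higher by more than 20 points. Of the same 11608 coding genes, 0.896% were lower and 1.34% higher by this much. By this measure SLC25A43 differed by −18.3 points, SLC25A13 by −8.91 points and SLC25A26 by 16.6 points, in the same directions.

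The 4 members that moved by more than 20 points by fold enrichment held no core with up to 1 mismatch. The same was true of 33 of the 37 members with a lead peak, so this count of 4 says little. Of the 4 members with the core, the largest difference by fold enrichment was −5.66 points, at SLC25A51. The others ranged from −1.98 points at SLC25A10 to 2.27 points at SLC25A11. Over all coding genes the median absolute difference by fold enrichment was 3.12 points with the core and 6.12 points without. These 2 groups also differed in strength, with siControl median −log10 q of 66.4 and 12.3, and the part of strength was not tested. SLC25A48, with a difference of 19.9 points, lay just within the limit of 20.

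**Figure D4:**
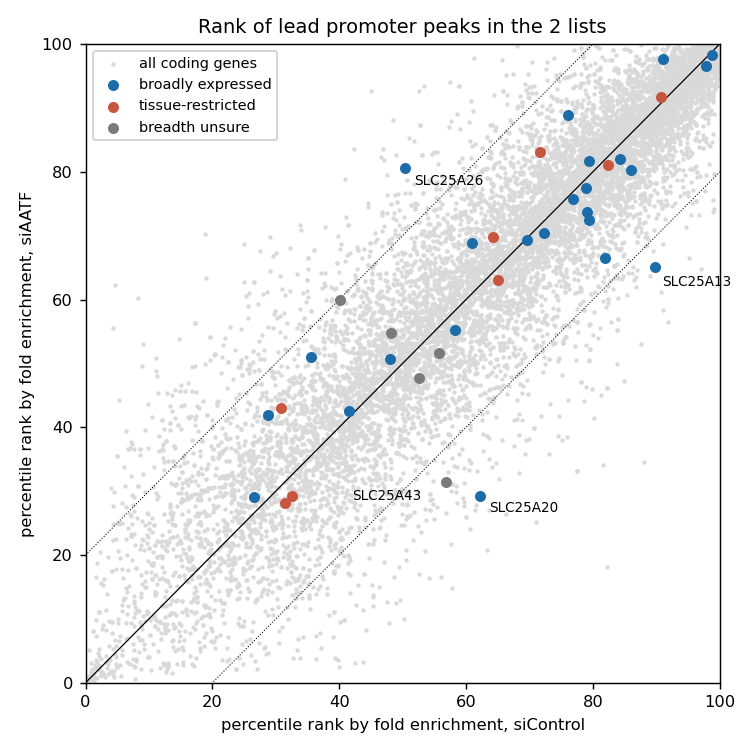
The percentile rank by fold enrichment of each lead promoter peak in siAATF (y axis) is plotted against that in siControl (x axis), with all coding genes in grey and members coloured by breadth of expression. The solid line marks equal rank and the dotted lines a difference of 20 points, beyond which lie SLC25A20, SLC25A43 and SLC25A13 below and SLC25A26 above.

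Most lead peaks covered the start of the gene. Of the 37 in siControl, 35 spanned the canonical transcript start, beside 10105 of 12095 lead peaks over all coding genes. In siAATF 35 of the 37 did, beside 10167 of 12006. The exceptions were SLC25A46, whose peak began downstream and was centred at 340 bp in siControl, and SLC25A48, whose peak lay at another coding start, centred at −255650 bp from the canonical one in siControl, where CXCL14 also has a start. For the other 36 members the midpoint lay between −530 bp and 569 bp of the start in siControl and between −496 bp and 562 bp in siAATF, within 250 bp at 32 members in each list. The outermost were SLC25A28 upstream and SLC25A38 downstream in both lists. Their width had a median of 828 bp in siControl, beside 856 bp over all coding genes with a promoter peak. In siAATF it was 854 bp, beside 870.0 bp.

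Some of these peaks are shared with a neighbouring gene and cannot be given to the carrier alone. A start of another coding gene lay within the siControl lead peak at 4 of the 37 members, beside 2659 of 12095 over all coding genes. The 4 members were SLC25A11 with RNF167, SLC25A32 with DCAF13, SLC25A40 with DBF4 and SLC25A48 with CXCL14. In siAATF there were 5, beside 2689 of 12006, since the wider peak of SLC25A27 also reached a start of CYP39A1. Further promoter peaks were few and weak. The members had 39 promoter peaks in siControl and 38 in siAATF. The additional ones lay at SLC25A22 in siControl, with a −log10 q of 3.46, and at SLC25A25 at different places in the 2 lists, with 1.38 in siControl and 2.19 in siAATF, and had no counterpart in the other list.

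A word bound by the ETS factor GABP, also called NRF-2, which regulates many mitochondrial genes, was searched as CCGGAAGT on both strands. It lay within 500 bp of the canonical start of 7 members (14.6%, beside 7.86% of all coding genes). These were SLC25A1, SLC25A6, SLC25A11, SLC25A17, SLC25A24, SLC25A26 and SLC25A46, all among the broadly expressed carriers. SLC25A11 was the one of them that held both this word and the NRF-1 core in its lead peak. Of the lead peaks in siControl, 5 of 37 held the word, beside 1321 of 12095 over all coding genes. In siAATF 5 of 37 held it, beside 1314 of 12006. SLC25A6 had no lead peak, and that of SLC25A46 did not hold the word. A match describes the sequence and says nothing of GABP in these cells.

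Other genes of mitochondrial transport were set beside the family. The list held 21 genes, 5 of them family members under another symbol (UCP1, UCP2, UCP3, MTCH1 and MTCH2) and the rest pyruvate carriers, outer membrane channels, sideroflexins, calcium uptake proteins and ABC transporters. A promoter peak was present at 18 of 21 in siControl, beside 61.1% of all coding genes, and at 18 in siAATF, beside 60.7%. UCP1, the uncoupling protein of brown fat, and its muscle relative UCP3 were among those without a peak in both lists. The 3 highest by −log10 q in siControl were VDAC3, MTCH2 and MPC2. VDAC3, an outer membrane channel, had 100.0 in siControl and 81.0 in siAATF. MTCH2, an outer membrane insertase, had 92.2 and 89.5, and stood above VDAC3 in siAATF. The peak of MPC2, a subunit of the pyruvate carrier, had 81.2 and 69.0, but it did not span the canonical start of MPC2 and held a start of DCAF6. These 3 held the core with up to 1 mismatch in their lead peaks, as did LETM1, a cation exchange protein, with 53.8 and 51.1. The median over the 18 was 38.2 in siControl and 38.4 in siAATF. It was 19.0 and 16.3 for the carriers, and 18.1 and 17.6 for all coding genes with a promoter peak.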

How the data were processed

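ChIPmentation libraries, in which Tn5 transposase inserts the adapters into immunoprecipitated chromatin, were sequenced as paired ends. Per the labels, Bowtie2 and MACS2 were used with hg19, and the study's methods place them in a Nextflow pipeline for ATAC-seq with defaults. No control library was named. The experiment was done in duplicate, each label carries replicate 1, and pooling was not stated. The authors deposited 1 broadPeak list per condition, with the position of each peak, its fold enrichment (a ratio), its −log10 p and its −log10 q. The deposited display score was not used. Depth is unknown, so the lowest detectable peak may differ between lists, and a pipeline that shifts or extends transposase cuts can move peak edges.

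Promoters came from GENCODE release 44 lifted to GRCh37 and sequence from the GRCh37 primary assembly, with genes of the mitochondrial chromosome left out. Genes were matched by symbol. Core matches were searched in Python 3.11.15 with pysam 0.24.0, numpy 2.4.6 and pandas 2.3.3, and the scripts were tested on simulated data. Coordinates are 1-based. The rule for naming genes asked for values of the 10 members highest by siControl −log10 q, those with a peak in 1 list only, those that moved by over 20 points and those with the exact core, and for the nearest peak of members without one. Values of remaining members were added, but 1 member, which stays in all counts and medians, is not reported here by name. Of the other transport genes, those without a peak and the 3 highest were to be named, with 1 of the former not reported here, and LETM1 was added after its values were seen. Members, breadth classes and lists were chosen with earlier results of these data known. No test was made, since there is 1 list per condition.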

Additional observations from a re-analysis of the deposited data

How the results depend on the processing

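The alternatives gave 53 values for 14 results, of which 41 stayed within 1.5 times for counts or within 1 point for medians of rank, and 12 moved. Causes were not tested unless the setting gives them. With the 10000 strongest peaks by fold enrichment, which drops weak peaks, 5 of 14 tissue-restricted carriers had a promoter peak in each list. The other counts fell too, to 20 of 25 broadly expressed carriers and 29 of 48 members in each list. No share over all coding genes was set beside these counts. Counting carriers of unsure breadth as restricted gave 13 of 23 in each list, in place of 8 of 14. That count rose with the size of the class. Ranked by −log10 q, the median rank was 66.4 in siControl and 64.7 in siAATF, with 1 member lower and 0 members higher by over 20 points. With −log10 q of at least 5, which removes the weakest peaks and ranks the rest anew, the median rank was 56.7 and 55.2. With 1 mismatch the core was in 4 lead peaks in each list. Promoters of 500 bp or 2 kb, the canonical start alone (36 members with a peak), lead peaks by fold enrichment, reciprocal overlap of 50% and a core within 100 bp of the midpoint moved none of the results computed under them. No paired analysis was possible because each condition has a single list of peaks. Unknown depth limits what an absent peak shows.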
